A study of Mus musculus with 4 samples.

Results

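The Ras, Raf and MAP kinase cascade was examined here through 7 genes, Nras, Hras, Rasgrp3, Sos1, Braf, Map2k1 and Mapk3, which were picked out by gene symbol among the 55401 genes of the count tables. The series asked what loss of NSD1, an enzyme that methylates lysine 36 of histone H3, does to B cells, and it holds RNA-seq counts of B220+ B cells sorted from mouse spleen. The control group, NSD1B WT, was Mb1-Cre+ NSD1+/+, and the knockout group, NSD1B KO, was Mb1-Cre+ NSD1fl/fl, with 2 libraries in each. Both groups carried the Mb1-Cre allele, in which Cre is driven from the Cd79a locus in cells of the B lineage, so the floxed allele is recombined in B cells and not in the rest of the animal. All mice were kept on the C57BL/6J background with littermate controls, and the study's methods describe young adult mice of both sexes without giving the age or sex behind each library. Nothing in the sources used here says whether both libraries of a genotype came from different mice, so the p-values measure the spread between libraries, which may be technical.

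Ras proteins are membrane-bound switches that are on when they hold GTP and off when they hold GDP. In B cells the antigen receptor turns them on through exchange factors: the RasGRP proteins are recruited by diacylglycerol and phosphorylated by protein kinase C, and the Sos proteins arrive with the adaptor Grb2. GTP-bound Ras recruits Raf kinases, Raf phosphorylates the MEK kinases, and MEK phosphorylates the ERK kinases, which act on transcription factors and other kinases and drive the survival and expansion of B cells.

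The libraries held 6769118 to 7566834 counts on genes. Nsd1, the deleted gene, had 497 and 480 counts in the NSD1B WT libraries and 284 and 280 in the NSD1B KO libraries, a log2 fold change of -0.74 (SE 0.11, adjusted p = 8.08e-08, edgeR quasi-likelihood test). Both knockout libraries were below both controls, but the counts cover the whole gene and not the floxed exons alone, so this is a weak check of the labels. Of the B cell markers, Cd79b had 49099 and 49554 counts in NSD1B WT against 61416 and 52358 in NSD1B KO, Ms4a1 had 19792 and 19910 against 13895 and 11830, and Pax5, which encodes a factor that keeps B cell identity, had 279 and 342 against 30 and 31. Ms4a1 and Pax5 were called lower and Cd79b was not called. Levels of other cell types are given as CPM, counts scaled to a common library total by the TMM method. T cell markers were low in both genotypes, at 57.0 to 59.0 and 59.9 to 65.2 CPM, with Cd4 and Cd8a at 0, 2 of 4 tested markers higher and 2 lower. Markers of other cells moved with genotype. Erythroid markers summed to 35.6 to 39.6 CPM in NSD1B WT and 1690 to 1944 CPM in NSD1B KO, with 5 of 5 tested markers higher. Myeloid markers summed to 4570 to 4673 CPM and 5734 to 6082 CPM, with 5 of 7 higher and 2 lower. B1 cell markers summed to 896 to 938 CPM and 525 to 531 CPM, with 3 of 7 higher and 4 lower. Natural killer cell markers summed to 55.8 to 59.6 and 88.4 to 88.5 CPM, with 2 of 3 tested higher and 1 lower. Plasmacytoid dendritic cell markers summed to 157 to 158 and 221 to 229 CPM, with 2 of 3 tested higher and 1 lower. Follicular and marginal zone B cell markers summed to 536 to 539 and 651 to 669 CPM, with 1 of 5 tested higher and 3 lower. Plasma cell markers summed to 267 to 273 and 230 to 231 CPM, with 2 of 4 tested higher and 2 lower. Dividing-cell markers summed to 228 to 233 CPM and 214 to 221 CPM. Of the 5, Mki67, Top2a, Ccnb1 and Cdk1 were at 0 in both knockout libraries, as were 11.3% of all tested genes, and Pcna was not called, with 1375 and 1384 counts against 1590 and 1440. The part of these differences in the values below was not tested.

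The comparison across all genes sets the background for the cascade. A gene was called when its adjusted p was under 0.05 and its fold change above 1.2. Of 11657 tested genes 78.2% were called, 37.1% as higher and 41.1% as lower in NSD1B KO. Both knockout libraries lay on 1 side of both controls for 88.1% of tested genes, above for 41.8% and below for 46.2%. Against that background 4 of the 6 members that could be tested were called. Rasgrp3, Braf and Map2k1 were higher, Mapk3 was lower, Nras and Sos1 were not called, and Hras was too low to test. The members' median log2 fold change was 0.16, against -0.10 over all tested genes. With so many genes called, the members' count is not a result about the cascade, and their own values are what can be described. These are levels in a bulk sample, in which fewer cells expressing a gene and less RNA per cell cannot be told apart.

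**Figure D1:**
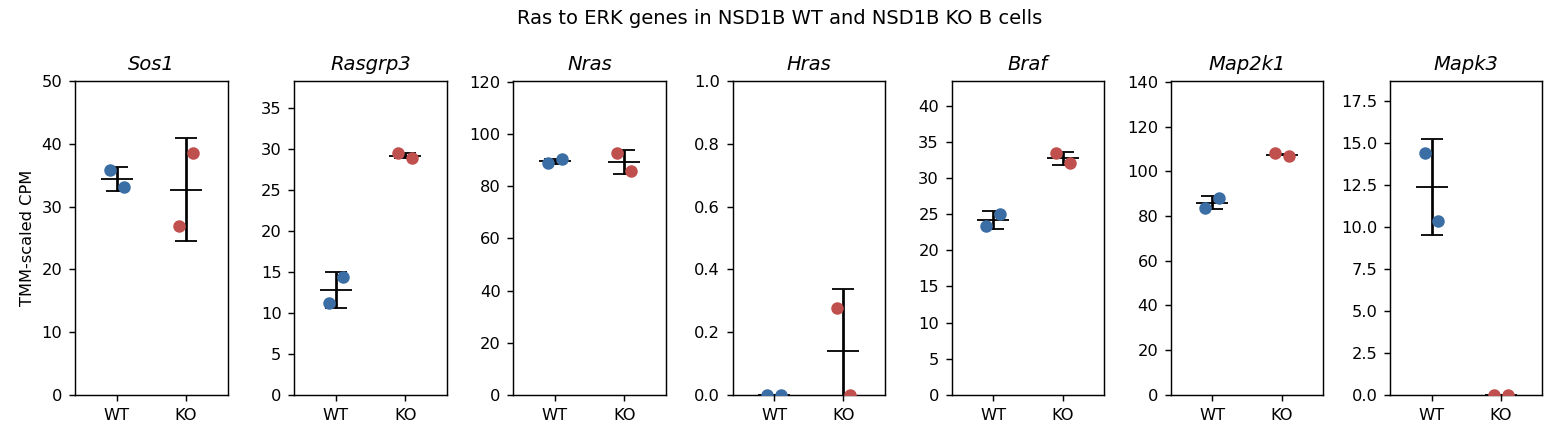
TMM-scaled CPM of the 7 cascade genes in each of the 4 libraries, with 1 panel a gene on its own linear axis starting at 0. Points are libraries and bars are group means with SD (n = 2). Rasgrp3, Braf and Map2k1 were higher in both NSD1B KO libraries, Mapk3 was at 0 in both, and the groups overlapped for Nras, Sos1 and Hras.

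The exchange factors open the cascade. Rasgrp3 encodes a diacylglycerol-responsive exchange factor that works beside RasGRP1 in B cells. The gene lies at chr17:75435896-75529054 on the plus strand of mm10 and had 80 and 105 counts in NSD1B WT against 212 and 195 in NSD1B KO. On the TMM-scaled level this was 11.2 and 14.4 CPM against 29.5 and 29.0 CPM. Both knockout libraries were about the same and both were above the controls. The means of 12.8 ± 2.24 and 29.2 ± 0.336 CPM (SD, n = 2 each) differed 2.29-fold, a log2 fold change of 1.19 (SE 0.18, 95% interval 0.83 to 1.55, adjusted p = 4.83e-08, edgeR quasi-likelihood test). It was the only member called higher at the stricter limit of an adjusted p under 1e-05 with a log2 fold change above 0.5, which 27.4% of tested genes passed as higher, and Mapk3 was the only member called lower there, beside 29.8% of tested genes.

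Sos1 encodes the exchange factor that Grb2 brings to the membrane. It lies at chr17:80393751-80480453 on the minus strand and had 256 and 242 counts in NSD1B WT against 194 and 259 in NSD1B KO. The corresponding levels were 35.8 and 33.1 CPM against 27.0 and 38.5 CPM, so the knockout libraries straddled the controls. The log2 fold change was -0.08 (SE 0.15, adjusted p = 0.633, edgeR quasi-likelihood test), with a 95% interval of -0.37 to 0.22 that holds both a fall past the fold limit and no change. Which knockout library was used decided the value. Without NSD1B KO replicate 2 it was -0.35 and called lower (adjusted p = 0.0431, edgeR), and without NSD1B KO replicate 1 it was 0.16. With the trend on gene length and GC content removed it was -0.34 and also called lower (adjusted p = 0.016, edgeR), in a fit where 40.9% of tested genes were called lower and 36.3% higher.

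The relatives of both exchange factors were lower or close to the controls in the knockout. Rasgrp1, the main RasGRP of lymphocytes, had 1220 and 1328 counts against 776 and 793, a log2 fold change of -0.64 (SE 0.09, adjusted p = 6.37e-09, edgeR). Rasgrp2, best known as an exchange factor for Rap1, had 1667 and 1528 counts against 1380 and 1203. Its log2 fold change of -0.25 (SE 0.08) had an adjusted p of 0.00541 (edgeR) but stayed under the fold limit. At -0.33 to -0.29 it was called lower under some other settings, and at -0.25 it was called by the adjusted p alone. Without NSD1B WT replicate 1 it was -0.15 (adjusted p = 0.141, edgeR). Sos2 had 227 and 263 counts against 32 and 28, so it was 7.87-fold lower in the knockout (log2 fold change -2.97, SE 0.21, adjusted p = 2.06e-17, edgeR).

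Levels were compared between genes as CPM per kb of merged exons, a scale that depends on the annotated exon length. On that scale Rasgrp3 made up 3.74% and 4.75% of the 3 RasGRP genes together in the NSD1B WT libraries and 12.7% and 12.3% in the NSD1B KO libraries. Rasgrp1 made up 59.5% and 62.7% in the controls and 48.4% and 52.0% in the knockout. Rasgrp2, with 12384 bp of merged exons, made up 36.8% and 32.6% in the controls and 38.9% and 35.7% in the knockout. On counts alone the order of Rasgrp1 and Rasgrp2 was reversed. Rasgrp2 then made up 56.2% and 51.6% in the controls and 58.3% and 54.9% in the knockout. Rasgrp1 made up 41.1% and 44.8% against 32.8% and 36.2%. On both scales Rasgrp3 was a minor part of the RasGRP transcripts in both genotypes. On counts it was 2.7% and 3.55% in the controls and 8.95% and 8.9% in the knockout. The 3 RasGRP genes summed to 51.5 ± 0.378 CPM per kb in NSD1B WT and 40.1 ± 0.47 CPM per kb in NSD1B KO, so the sum was lower by a ratio of 0.779 although Rasgrp3 itself was higher. The ratio of Sos1 to Sos2 was 0.906 and 0.739 in the controls and 4.87 and 7.43 in the knockout, and the sum of both fell from 7.23 ± 0.168 to 3.6 ± 0.747 CPM per kb. With 2 libraries against 2 an exact permutation test cannot go below p = 0.333, so these ratios and sums are given without a test.

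Neither Ras gene among the members was called. Ras proteins are alike in sequence, and over the coding sequence Nras was 76.1% identical to Hras. The longest run shared by their transcripts was 23 bases, which is shorter than a sequencing read. A pseudogene of Nras is annotated, and reads that fit both equally well may be missing from the counts of Nras.

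Nras lies at chr3:103058285-103067914 on the plus strand and had 636 and 660 counts in NSD1B WT against 666 and 578 in NSD1B KO. The levels were 89.0 and 90.3 CPM against 92.6 and 85.9 CPM, and the groups overlapped. The log2 fold change was -0.01 (SE 0.10, adjusted p = 0.957, edgeR quasi-likelihood test), and the 95% interval of -0.20 to 0.19 lies within the 1.2-fold limit in both directions. That interval holds for the main fit alone. With the trend on gene length and GC content removed the value was -0.20 (adjusted p = 0.0411, edgeR), still under the fold limit and not called.

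Hras lies at chr7:141189105-141194005 on the minus strand and was listed at 0 counts in both NSD1B WT libraries, at 2 counts in NSD1B KO replicate 1 and at 0 in NSD1B KO replicate 2. A count of 0 over a genotype allows up to 3 counts, which is 0.2075 CPM in NSD1B WT. NSD1B KO had 2 counts in all, fewer than those 3, so no fold change is given. Hras transcripts were not detectable at this depth in the controls.

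Braf encodes the Raf kinase with the highest basal activity. It lies at chr6:39603237-39725463 on the minus strand and had 167 and 183 counts in NSD1B WT against 240 and 216 in NSD1B KO. The levels of 23.4 and 25.0 CPM against 33.4 and 32.1 CPM did not overlap. Braf was 1.35-fold higher in the knockout, a log2 fold change of 0.44 (SE 0.15, 95% interval 0.14 to 0.73, adjusted p = 0.007, edgeR quasi-likelihood test). The call was lost when the trend on gene length and GC content was removed, where the log2 fold change was 0.16 (adjusted p = 0.3, edgeR). The gene has 13862 bp of merged exons, the longest of the 7, and 146 bp of them (1.05%) overlap Ndufb2 on the opposite strand.

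Araf, another Raf kinase, was also higher. It had 50 and 64 counts in NSD1B WT against 115 and 85 in NSD1B KO (log2 fold change 0.86, SE 0.24, adjusted p = 0.0011, edgeR). The coding sequences of Braf and Araf were 68.2% identical, and the longest run shared by their transcripts was 17 bases.

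Map2k1 encodes MEK1, 1 of the 2 kinases that phosphorylate ERK. It lies at chr9:64185770-64253631 on the minus strand and had 599 and 643 counts in NSD1B WT against 775 and 721 in NSD1B KO. Its levels were 83.8 and 88.0 CPM against 108 and 107 CPM, with both knockout libraries above the controls. Map2k1 was 1.25-fold higher in the knockout, a log2 fold change of 0.32 (SE 0.09, 95% interval 0.13 to 0.51, adjusted p = 0.00173, edgeR quasi-likelihood test). This is close to the 1.2-fold limit, and with library size alone as the scaling the value was 0.24 and under it (adjusted p = 0.00732, edgeR). Map2k2, which encodes MEK2, had 205 and 237 counts against 224 and 191 and was not called (log2 fold change -0.04, SE 0.15, 95% interval -0.33 to 0.25, adjusted p = 0.819, edgeR). The ratio of Map2k1 to Map2k2 per kb was 4.88 and 4.53 in the controls and 5.78 and 6.30 in the knockout.

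The largest difference among the members was in Mapk3, a gene of the last step. Other ERK transcripts are not reported here, so its value does not give the level of that step. Mapk3 encodes ERK1, which MEK activates by phosphorylating a threonine and a tyrosine in the sequence Thr-Glu-Tyr of the activation loop. The 60 coding bases around these codons are given because they specify the site at which MEK acts. They come from exon 4 in GENCODE M21 on mm10, at chr7:126763428-126763487 on the plus strand, and capitals mark the Thr-Glu-Tyr codons at bases 31 to 39.
Mapk3: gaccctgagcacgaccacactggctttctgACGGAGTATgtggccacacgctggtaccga

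Mapk3 lies at chr7:126759601-126765819 on the plus strand and had 103 and 76 counts in NSD1B WT and 0 and 0 in NSD1B KO. Its level in the controls was 14.4 and 10.4 CPM, a mean of 12.4 ± 2.84 CPM (SD, n = 2). Against the limit that a count of 0 allows over the genotype, Mapk3 was at least 57.6-fold lower in the knockout (adjusted p = 3.94e-15, edgeR quasi-likelihood test). A complete absence of counts was not particular to Mapk3, since 11.3% of tested genes were at 0 in both knockout libraries and 18.9% were at 0 in both libraries of a genotype. Under the setting that kept only genes with at least 1 CPM in every library Mapk3 was not tested.

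**Figure D2:**
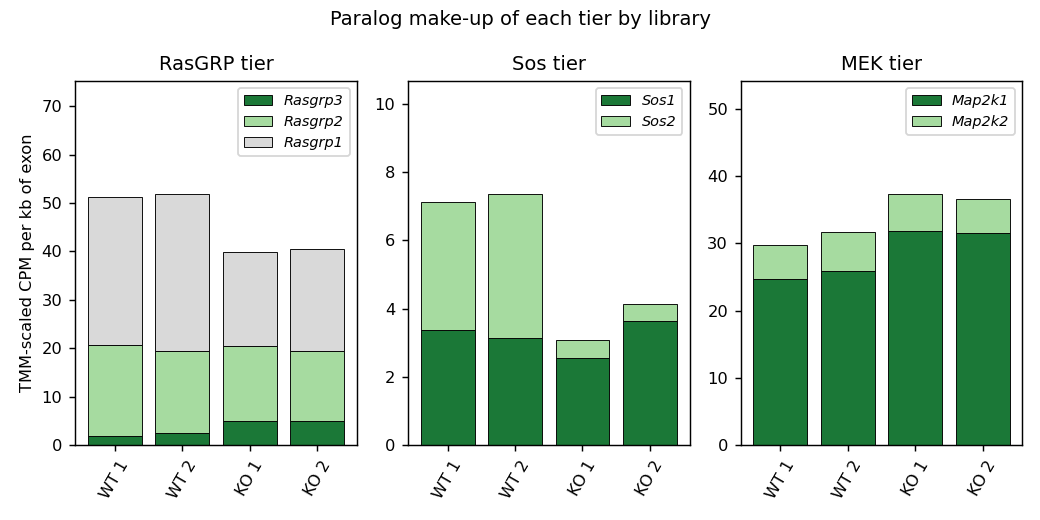
Sums of the paralogs of the RasGRP, Sos and MEK steps of the cascade as TMM-scaled CPM per kb of exon, with stacked bars for the 4 libraries and colours for the genes. The RasGRP and Sos sums were lower in NSD1B KO by ratios of 0.779 and 0.497, and the MEK sum was higher by a ratio of 1.2. Sums of the Ras, Raf and ERK steps are not reported here.

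The order of the members per length also changed. In the controls it ran from Map2k1 at 25.3 ± 0.862 CPM per kb and Nras at 16.8 ± 0.17 through Mapk3 at 5.5 ± 1.26, Sos1 at 3.25 ± 0.182, Rasgrp3 at 2.19 ± 0.384 and Braf at 1.75 ± 0.0848, with Hras at 0. Rasgrp3 and Braf lay within the sum of their SDs there. In the knockout it ran from Map2k1 at 31.7 ± 0.11 CPM per kb and Nras at 16.7 ± 0.88 through Rasgrp3 at 5.0 ± 0.0576, Sos1 at 3.09 ± 0.77 and Braf at 2.36 ± 0.0635 to Hras and Mapk3, and there Sos1 and Braf lay within the sum of their SDs. Rasgrp3 moved up and Mapk3 went to 0, while the others kept their order. Over all tested genes ranked by mean level, Map2k1 and Nras were at the 86.5 and 85.6 percentiles, Sos1, Braf and Rasgrp3 between 57.5 and 68.4, and Mapk3 at 29.3.

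**Figure D3:**
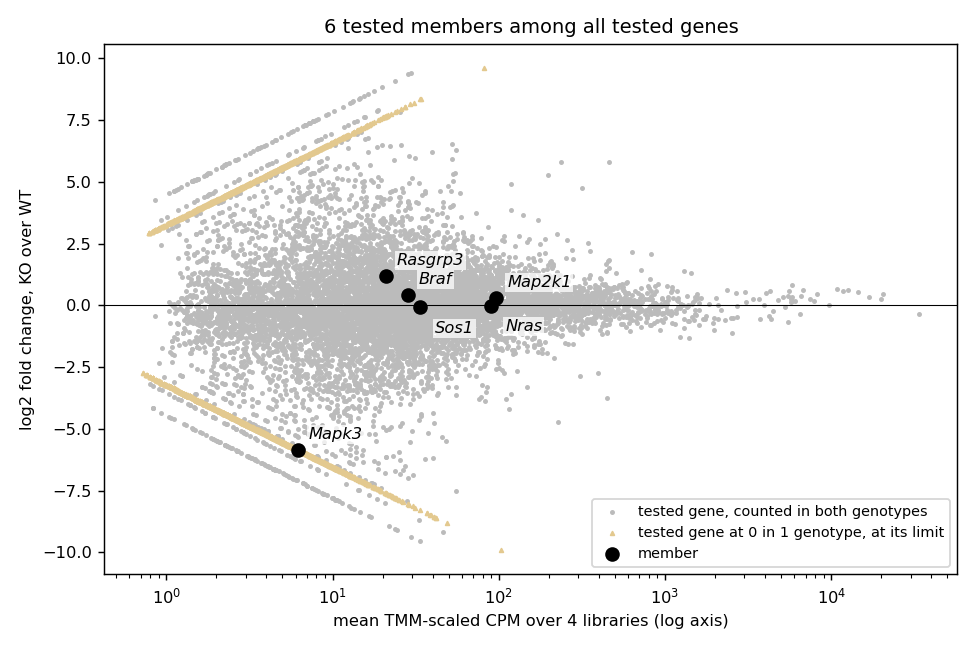
Log2 fold change of NSD1B KO over NSD1B WT against the mean TMM-scaled CPM over the 4 libraries (log axis) for the 11657 tested genes. Grey points are genes counted in both genotypes, tan triangles are genes at 0 in a genotype drawn at the limit that 3 counts allow, and black points are the 6 tested members, of which Mapk3 lies on the lower line of limits.

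The promoters of the members differed in make-up, and 2 members that were called higher are given here, 1 with many CpG dinucleotides and 1 with few. RefSeq windows were matched by symbol for 6 of the 7 members, and no window of Mapk3 was used here. The 250 bases before the RefSeq gene start on GRCm38.p6 were searched on both strands for CCGGAA, a core of ETS factor sites, GGGCGG, a GC box, and TGACGTCA, the full cAMP response element, and matches are in capitals. Braf, at chr6:39725464-39725713 on the minus strand, had 24 CpG dinucleotides, TGACGTCA 2 times and GGGCGG 1 time, here read on its other strand. Rasgrp3, at chr17:75435655-75435904 on the plus strand, had 4 CpG dinucleotides and CCGGAA 1 time.
Braf: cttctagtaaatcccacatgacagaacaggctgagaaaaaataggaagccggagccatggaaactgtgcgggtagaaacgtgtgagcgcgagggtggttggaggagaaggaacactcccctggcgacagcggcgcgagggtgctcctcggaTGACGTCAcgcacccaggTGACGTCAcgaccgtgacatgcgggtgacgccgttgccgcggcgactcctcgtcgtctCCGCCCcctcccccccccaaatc
Rasgrp3: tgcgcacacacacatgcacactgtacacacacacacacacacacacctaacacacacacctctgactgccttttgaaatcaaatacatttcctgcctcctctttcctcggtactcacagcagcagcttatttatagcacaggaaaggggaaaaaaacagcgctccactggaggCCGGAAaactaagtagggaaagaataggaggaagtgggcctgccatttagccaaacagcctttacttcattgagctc
Map2k1 and Hras also had 24 CpG dinucleotides in this window, Sos1 had 22 and Nras 14, against a median of 6 over 32851 RefSeq windows. A second Rasgrp3 start had 8. Of all windows 12% held CCGGAA, 32.7% GGGCGG and 1.55% TGACGTCA. These matches are a description of the sequence. CpG-rich windows were found in members that were called and in members that were not.

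The other genes of the pathway were read from the same fit. The lists held 112 genes of the tables, of which 78 could be tested. Of those 29 were higher, 36 were lower and 13 were not called, so 65 of 78 were called beside a background of 78.2%, with a median log2 fold change of -0.21 against -0.10 over all tested genes. Another 24 were at 0 in all libraries.

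**Figure D4:**
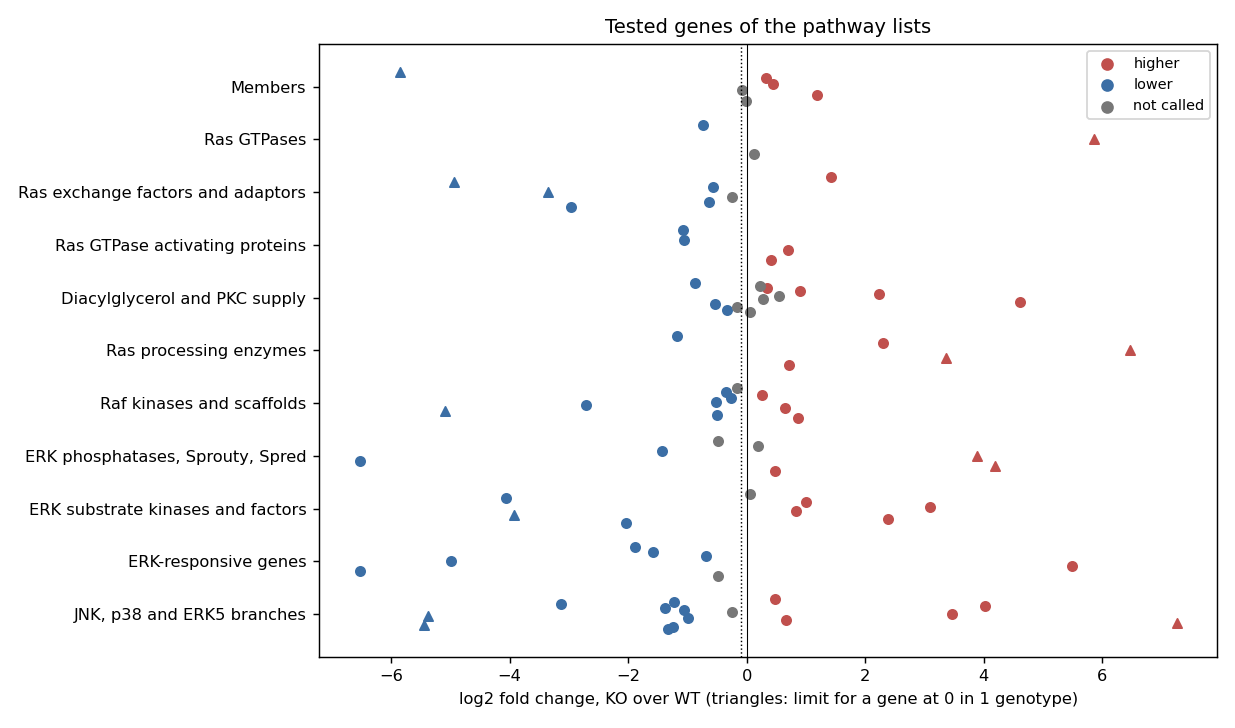
Log2 fold change of NSD1B KO over NSD1B WT for the tested genes of the cascade and of 10 wider lists, 1 row a list, with red for higher, blue for lower and grey for not called. Triangles mark genes at 0 in both libraries of a genotype, drawn at the limit that 3 counts allow, and the dotted line is the median of all tested genes at -0.10. Every row holds genes on both sides of the line.

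Of the relatives of Ras outside the members, Rras2 fell from 122 and 124 counts to 72 and 71 (log2 fold change -0.73, SE 0.21, adjusted p = 0.00185, edgeR). Rras was at 0 in both NSD1B WT libraries and had 85 and 84 counts in NSD1B KO, which is at least 58.5-fold higher. Of the exchange factors and adaptors, 7 of 11 were tested, 1 was higher and 5 were lower, with a median of -0.64. Shc1, an adaptor that links receptors to Grb2, had 44 and 52 counts in NSD1B WT and 0 in both knockout libraries, at least 30.8-fold lower. Ptpn11, which encodes the phosphatase SHP-2 that promotes Ras signalling, went the other way, from 170 and 177 counts to 472 and 428 (log2 fold change 1.43, SE 0.13, adjusted p = 2.16e-14, edgeR). These counts stand beside 41.1% of all tested genes lower and 37.1% higher, and the difference was not tested.

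The GTPase activating proteins turn Ras off. Of 10 listed 4 were tested, 2 were higher and 2 lower, beside 37.1% higher and 41.1% lower of all tested genes. The same background holds for the diacylglycerol list below, and no difference from it was tested. Rasa2 rose from 234 and 242 counts to 402 and 342 (log2 fold change 0.70, SE 0.12, adjusted p = 1.81e-06, edgeR). Rasal3, which is mainly found in blood cells, fell from 88 and 111 counts to 34 and 56 (log2 fold change -1.08, SE 0.26, adjusted p = 2.11e-04, edgeR). Genes that supply or remove the diacylglycerol to which RasGRP proteins bind, with the protein kinase C genes, were mixed as well, with 4 of 12 tested higher, 3 lower and 5 not called. Dgke, a kinase that converts diacylglycerol to phosphatidic acid, was 24.7-fold higher in the knockout, with 30 and 28 counts against 712 and 668 (log2 fold change 4.62, SE 0.16, adjusted p = 1.96e-29, edgeR). Prkce had 147 and 166 counts against 77 and 88 (log2 fold change -0.87, SE 0.19, adjusted p = 8.50e-05, edgeR).

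Ras needs a lipid anchor, and of 5 enzymes that process prenylated proteins 4 were higher and 1 was lower, with a median of 2.31. Over all tested genes 37.1% were higher and 41.1% lower, with a median of -0.10, and the difference was not tested. Rce1, the protease that trims the prenylated tail, was at 0 in both NSD1B WT libraries and had 134 and 122 counts in NSD1B KO, at least 88.6-fold higher. Pggt1b, which encodes a subunit of an enzyme that attaches prenyl lipids to small GTPases, fell from 132 and 124 counts to 52 and 57 (log2 fold change -1.17, SE 0.22, adjusted p = 6.49e-06, edgeR). Of the Raf kinases, scaffolds and regulators 3 of 10 tested were higher and 6 lower, beside the same background and again without a test of the difference. Pebp1, which encodes the Raf kinase inhibitor protein, fell from 272 and 239 counts to 47 and 28 (log2 fold change -2.71, SE 0.21, adjusted p = 2.00e-16, edgeR). Ksr1, a scaffold for Raf, MEK and ERK, had 49 and 57 counts in NSD1B WT and 0 in both knockout libraries, at least 34-fold lower.

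The phosphatases, Sprouty and Spred proteins damp MAP kinase signalling. Of 7 tested genes 3 were higher and 2 were lower, beside 37.1% higher and 41.1% lower of all tested genes. The difference was not tested. Dusp10, a phosphatase of JNK and p38, fell from 172 and 153 counts to 66 and 50 (log2 fold change -1.43, SE 0.21, adjusted p = 2.92e-08, edgeR), and Dusp1 rose from 246 and 219 to 290 and 335 (log2 fold change 0.48, SE 0.13, adjusted p = 0.00117, edgeR). Dusp5 was at 0 in NSD1B WT and had 28 and 25 counts in NSD1B KO, at least 18.3-fold higher, with 22.1% of its exon bases under an antisense gene. Among ERK substrates, Mknk1, a kinase of the translation factor eIF4E, rose from 26 and 28 counts to 237 and 211 (log2 fold change 3.10, SE 0.22, adjusted p = 1.61e-17, edgeR), and Elk3, an ETS factor, fell from 276 and 249 counts to 15 and 15 (log2 fold change -4.06, SE 0.24, adjusted p = 1.84e-20, edgeR).

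Of the genes that respond to ERK activity 7 were tested, with 5 lower and 1 higher and a median of -1.58, beside 41.1% lower and 37.1% higher of all tested genes. The difference from that background was not tested. Myc fell from 2027 and 1856 counts to 555 and 455 (log2 fold change -1.89, SE 0.09, adjusted p = 1.44e-23, edgeR). Dusp6, the ERK phosphatase that is often read as a marker of ERK activity, had 56 and 63 counts in NSD1B WT against 0 and 1 in NSD1B KO, and with 1 count the ratio of NSD1B WT to NSD1B KO was 111 with a counting interval of 20.2 to 4564. Dusp6 lies outside the rule for named genes and was chosen after its values were seen. Ccnd1, which encodes cyclin D1, went the other way, from 3 and 1 counts to 98 and 86 (log2 fold change 5.49, SE 0.47, adjusted p = 1.00e-14, edgeR), with 23.4% of its exon bases under LTO1 on the opposite strand. Egr1 was at 0 in all libraries and was also chosen after its values were seen. The myeloid and erythroid marker sums given above were higher in the same libraries, and their part in these counts was not tested.

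The parallel JNK, p38 and ERK5 branches had 5 of 15 tested genes higher and 9 lower, with a median of -1.06. Over all tested genes 37.1% were higher and 41.1% lower, with a median of -0.10, and the difference was not tested. Paralogs of the p38 kinase differed in direction. Mapk11, which encodes p38 beta, had 66 and 70 counts in NSD1B WT and 0 in both knockout libraries, at least 43.7-fold lower. Mapk12, which encodes p38 gamma, was at 0 in both NSD1B WT libraries and had 238 and 206 counts in NSD1B KO, at least 153-fold higher. Map2k4, a kinase that activates JNK and p38, had 58 and 72 counts against 0 and 0, at least 41.7-fold lower. Map3k4 fell from 135 and 123 counts to 9 and 19 (log2 fold change -3.14, SE 0.31, adjusted p = 6.76e-13, edgeR).

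Each member was finally set beside the wider-list gene whose 4 library values, centred on their own mean, lay nearest by root mean square distance on the log2 scale, among 78 candidates. Braf lay nearest to Rasa1 (0.0155) and so did Map2k1 (0.0486). Nras lay nearest to Elk4 (0.0521), Sos1 to Map2k7 (0.128), Rasgrp3 to Prkca (0.155) and Mapk3 to Mapk11 (0.259). These are descriptions over 4 libraries, and between 3 (for Braf) and 316 (for Rasgrp3) other tested genes outside the lists lay as near.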

How the data were processed

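B220+ B cells sorted from spleen were sequenced as 2 libraries of NSD1B WT and 2 of NSD1B KO, grouped by their labels. The authors deposited whole-number counts of reads per gene for each library. The submitters' notes and the study's methods name Bowtie2, Cufflinks and the mm10 genome, and how reads were counted (program, annotation, strand) is not given in the sources used here. Rows naming no gene were left out of library sizes. The row for reads on no feature held 44.3% to 44.6% of all listed reads. The 4 libraries were fitted in 1 model over the whole table with edgeR 4.0.16 in R 4.3.3, using TMM scaling, filterByExpr (minimum count 10, minimum total 15), the quasi-likelihood test and Benjamini-Hochberg adjustment over the 11657 genes that passed, of 55401. Genes were called at an adjusted p under 0.05 and a fold change above 1.2, the fold limit of the study's methods, without a replicate block. CPM are TMM-scaled. The within-genotype coefficient of variation was 0.07346, with a prior of 45.11 degrees of freedom, so each p-value leans on the spread shared over genes. A gene at 0 in a genotype was given the limit of 3 counts over that genotype, which covers counting error only. Exon lengths, overlaps and coding stretches came from GENCODE M21 on mm10, promoters from RefSeq on GRCm38.p6.

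The 7 members were picked by symbol. The members and the wider lists were chosen with earlier results of these data known. Of each wider list the text names the called gene with the largest rise and the one with the largest fall among those with a mean of at least 5 CPM, the direct paralogs of members, and each gene at 0 in a genotype with at least 50 counts in the other. Some of these genes are not reported here. For each member it also names the nearest wider-list gene. The steps were tested on simulated counts. Alternatives changed the scaling, the filter, the thresholds, the test (limma-voom in limma 3.58.1, DESeq2 1.42.0), the libraries used, a replicate block and a trend on length and GC content.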

Additional observations from a re-analysis of the deposited data

How the results depend on the processing

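No called result changed direction under any of the alternatives, while the values of Nras, Sos1 and Map2k2, which were not called, took both signs. A filter of 1 CPM or more in each of the 4 libraries lowered the calls over all genes from 4324 to 2855 higher and from 4795 to 2991 lower and those of the wider lists from 29 to 19 higher, and it left 0 members lower, since it drops every gene at 0 in a genotype, Mapk3 included. At an adjusted p under 1e-05 with a log2 fold change above 0.5, 1 member was higher instead of 3. With the trend on length and GC content removed 2 members were lower, because Sos1 joined Mapk3, and Braf lost its call. The causes were not tested. Leaving out each library in turn gave 3 members higher in every case, 1 to 2 members lower (2 without NSD1B KO replicate 2, where Sos1 was called), 4168 to 4332 genes higher and 4439 to 4808 lower, 27 to 29 and 34 to 38 wider-list genes, and -0.78 to -0.67 for Nsd1. When a library is left out, the lone library of its genotype is assumed to vary like the others. Library size alone moved the median log2 fold change of all tested genes from -0.10 to -0.18.

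The labels number the libraries 1 and 2 in both genotypes without saying what a number shares. The differences between libraries 2 and 1 had a correlation of 0.0629 between genotypes over 8764 genes, so the numbers were not taken as pairs. With the replicate block 4254 genes were higher and 4706 lower, with 3 members higher and 1 lower, and with the block and the length and GC trend removed 2 members were higher and 2 lower.

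At 6769118 to 7566834 counts a library, Hras was below the filter and its change could not be tested. With 2 libraries a genotype, spread between animals is not known.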
